A study of Homo sapiens with 12 samples.

Results

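The monocyte and inflammatory effector genes are 8 genes whose products act in monocytes and other mature myeloid cells: S100A8, S100A9, S100A12, FCN1, CD14, ITGAM, CYBB and VCAN. They were taken by name from 19974 protein-coding genes of chromosomes 1 to 22 and X. For each gene, the called intervals of the 9 histone marks that match a sample were read over its annotated span and 5 kb on either side, which is called its window here. The marks were mapped by chromatin immunoprecipitation and sequencing in KBM-7, a near-haploid human cell line established from chronic myeloid leukaemia in blast crisis. All 12 libraries came from formaldehyde-crosslinked chromatin of these cells, sheared to about 300 bp, and no treatment is given. There was 1 library for each of 9 marks: the repressive H3K27me3, the methylations H3K4me3, H3K4me2 and H3K4me1, H3K79me2 and H3K36me3, and the acetylations H3K9ac, H3K27ac and H4K16ac. The 3 inputs entered no comparison. No mark had a replicate, so no value below has a replicate error and no test of a difference was possible. The list gives positions alone, so depth is unknown, and a window without an interval is a window where none was called. Intervals named H3K36me3 coincided with those named H4K16ac at every position, 45639 in number, and are described as a single set. Whether that set holds H3K36me3, H4K16ac or both cannot be told apart from the file. Intervals named H3K9me3, another repressive mark, match no sample and were not analysed here, so "no other set" below leaves that mark out. GRCh38 coordinates are used throughout.

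Monocytes are made in the bone marrow from progenitors that switch on these effector genes late in maturation. S100A8 and S100A9 form calprotectin, a calcium- and metal-binding complex that fills the cytosol of monocytes and neutrophils, and S100A12 is a related alarmin. FCN1 encodes a ficolin, a lectin of innate immunity, CD14 the co-receptor for bacterial lipopolysaccharide, ITGAM the alpha chain of the adhesion and complement receptor Mac-1, CYBB the catalytic subunit of the phagocyte NADPH oxidase, and VCAN the matrix proteoglycan versican. Among the marks, H3K4me3 and H3K9ac are known from active promoters, H3K27ac from active promoters and enhancers, H3K4me1 and H3K4me2 from enhancers and the sides of promoters, H3K79me2 and H3K36me3 from transcribed bodies, and H3K27me3 from genes silenced by Polycomb. As a check, CD34, SPN, GATA2, LMO2, SPI1 and CISH were read, progenitor and signalling genes chosen for their known activity in this line. All 6 had H3K4me3, H3K9ac, H3K27ac and H3K79me2 in their windows, against 58.4%, 62.9%, 10.9% and 47.6% of all genes. H3K27me3 was called in 0 of the 6, against 44.4%. Because of how the 6 were chosen, these counts are not read as a result about the line.

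The promoters are shown first, because the members' CpG content is set beside their marks below. RefSeq promoter windows on GRCh38.p14 run from 250 bases before a listed start of transcription to 50 after it, and all 8 genes were matched. VCAN had the promoter richest in CpG and S100A12, with CYBB, the poorest. Both are printed in the direction of transcription with each CG in capitals, VCAN from chr5:83471494-83471793 on the plus strand and S100A12 from chr1:153375572-153375871 on the minus strand.

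VCAN: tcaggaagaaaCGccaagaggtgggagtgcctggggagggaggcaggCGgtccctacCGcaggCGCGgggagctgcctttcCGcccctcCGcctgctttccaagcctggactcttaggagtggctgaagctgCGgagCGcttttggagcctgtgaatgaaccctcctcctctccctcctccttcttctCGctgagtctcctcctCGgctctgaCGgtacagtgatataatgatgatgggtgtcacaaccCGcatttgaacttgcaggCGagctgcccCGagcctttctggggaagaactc

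S100A12: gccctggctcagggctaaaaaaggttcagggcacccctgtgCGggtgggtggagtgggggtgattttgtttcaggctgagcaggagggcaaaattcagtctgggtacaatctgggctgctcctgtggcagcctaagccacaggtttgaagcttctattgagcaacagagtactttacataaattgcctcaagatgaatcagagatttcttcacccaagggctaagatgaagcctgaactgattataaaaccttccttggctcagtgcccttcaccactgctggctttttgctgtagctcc

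The VCAN promoter held 15 CpG, the S100A12 promoter 1 and the CYBB promoter 1. S100A8, FCN1 and ITGAM had 2 each, S100A9 had 5 and CD14 had 8. The median of 22132 distinct promoter windows of protein-coding genes was 21. All 8 genes thus lay below the median, and 62.3% of promoters had at least as many CpG as VCAN, against 98.1% for S100A12 and CYBB. The GC content of the members ran from 37.7% at CYBB to 60.3% at VCAN, beside a median of 62.3%.

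The next 4 promoters are those of the genes on which the contrasts among the members turn: S100A9 and its partner S100A8, and ITGAM and CYBB. Capitals mark exact matches, on either strand, to GAGGAA, the core letters bound by PU.1, to TTGCNNAA, a form of the C/EBP site, and to TATAAA, the TATA box. PU.1, encoded by SPI1, and C/EBP factors are known regulators of myeloid genes. S100A9 is from chr1:153357604-153357903 on the plus strand, S100A8 from chr1:153391024-153391323 on the minus strand, ITGAM from chr16:31259725-31260024 on the plus strand and CYBB from chrX:37779809-37780108 on the plus strand.

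S100A9: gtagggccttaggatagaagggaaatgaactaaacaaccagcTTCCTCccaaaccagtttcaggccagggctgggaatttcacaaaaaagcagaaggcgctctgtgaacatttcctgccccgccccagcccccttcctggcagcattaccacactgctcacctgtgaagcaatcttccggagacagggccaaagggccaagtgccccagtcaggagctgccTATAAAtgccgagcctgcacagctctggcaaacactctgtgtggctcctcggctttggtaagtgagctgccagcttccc

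S100A8: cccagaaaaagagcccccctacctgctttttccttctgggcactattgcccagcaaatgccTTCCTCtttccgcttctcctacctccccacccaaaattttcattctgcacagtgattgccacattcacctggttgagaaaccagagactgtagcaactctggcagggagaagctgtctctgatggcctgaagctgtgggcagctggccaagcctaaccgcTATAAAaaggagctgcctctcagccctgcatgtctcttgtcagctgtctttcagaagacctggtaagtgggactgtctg

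ITGAM: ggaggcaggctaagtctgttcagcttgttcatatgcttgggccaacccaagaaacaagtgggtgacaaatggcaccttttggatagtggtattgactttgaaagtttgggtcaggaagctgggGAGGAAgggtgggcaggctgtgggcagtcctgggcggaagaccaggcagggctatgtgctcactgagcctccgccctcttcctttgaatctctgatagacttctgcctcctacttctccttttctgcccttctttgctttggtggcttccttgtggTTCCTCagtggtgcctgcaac

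CYBB: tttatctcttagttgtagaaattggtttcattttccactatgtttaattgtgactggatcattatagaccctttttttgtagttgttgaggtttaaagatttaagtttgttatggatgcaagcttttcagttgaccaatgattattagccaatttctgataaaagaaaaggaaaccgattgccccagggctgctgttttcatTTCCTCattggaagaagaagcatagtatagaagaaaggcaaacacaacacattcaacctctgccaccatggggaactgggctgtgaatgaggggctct

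At the starts printed, S100A8 and S100A9 had TATAAA at the same place, from -29 to -24 relative to the listed start, where the start is the base after the 250 upstream bases. The printed S100A8 start is 153391073, and the gene has others. Relative to its start at 153390976, TATAAA lay from -126 to -121. The window of its most upstream start, 153391188, held no TATAAA. S100A12 had TATAAA from -8 to -3. TATAAA was in 9.46% of all promoter windows. GAGGAA was in at least 1 listed promoter of S100A8, S100A9, FCN1, CD14, ITGAM and CYBB, with 2 matches at ITGAM, and in 27.9% of all promoters. It was found in neither S100A12 nor VCAN. TTGCNNAA was found at S100A12 alone, where the printed strand reads TTGAGCAA, and in 8.69% of all promoters. CACCC, the core of sites bound by KLF factors, was found at S100A8, S100A12, FCN1, CD14, ITGAM and VCAN, and in 63.4% of all promoters. These are matches of letters, which do not show binding.

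The 8 genes fell into separate kinds by their marks. S100A8, S100A12 and FCN1 had H3K27me3 and none of the other 7 sets in their windows. S100A9 had H3K27me3 with H3K4me1 and H3K4me2 at its start. ITGAM had H3K4me1 and H3K4me2 at its start and H3K27me3 along much of its body, and CYBB had H3K4me1 and H3K4me2 without H3K27me3. CD14 had no region over its span. VCAN was the 1 member with H3K4me3, H3K79me2 and the H3K36me3/H4K16ac set. By count, H3K27me3 was in the windows of 5 of 8 members, against 44.4% of all genes, but S100A8, S100A9 and S100A12 are neighbours under shared regions. H3K4me2 was in 5 of 8, against 78.2% of all genes, and H3K4me1 in 4 of 8, against 56.4%. H3K9ac was in 2 of 8 (CYBB and VCAN), against 62.9%. H3K4me3, H3K79me2 and the H3K36me3/H4K16ac set were each in 1 of 8, VCAN, against 58.4%, 47.6% and 56.3% of all genes. H3K27ac was in 0 of 8, against 10.9%, a background so low that 0 of 8 is not read as a result. In 6 of 8 windows, all but those of CYBB and VCAN, none of H3K4me3, H3K9ac, H3K27ac, H3K79me2 and H3K36me3/H4K16ac was called, against 31.4% of all genes. H3K27me3 covered at least 50% of the span of the same 5 members that had it, against 23.0% of all genes. Both counts take in the neighbours S100A8, S100A9 and S100A12, which are not separate observations. The first also takes in CD14, which had H3K4me3, H3K79me2 and H3K36me3/H4K16ac within 10 kb of its span. H3K4me1 and H3K4me2 without H3K4me3 were in 4 of 8 windows (S100A9, CD14, ITGAM and CYBB), against 10.8% of all genes. CD14 counted here only through 351 bp of H3K4me1 and 651 bp of H3K4me2 at the edge of its window. An H3K4me2 region there overlapped H3K4me3 beyond that edge. The median share of the span under H3K27me3 was 73.7% over the members and 0% over all genes, and the median under H3K4me2 was 1.36% and 4.76%.

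**Figure D1:**
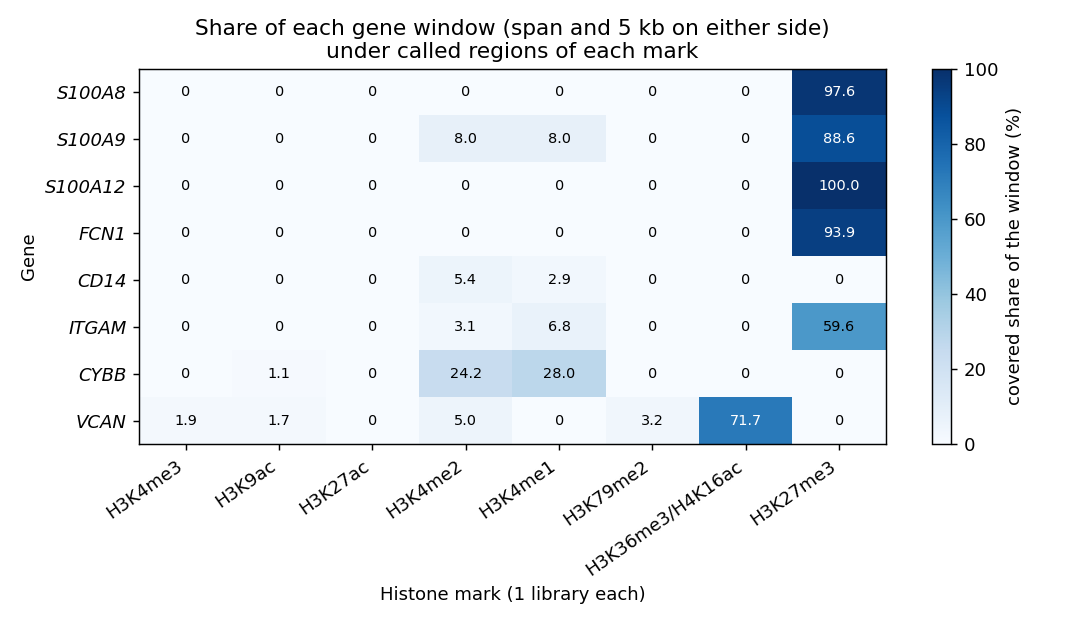
Share of each member's window (span and 5 kb on either side) under called regions, in percent, for 8 sets of marks with 1 library each. H3K27me3 filled 88.6% to 100% of the windows of the S100 genes and FCN1, H3K36me3/H4K16ac 71.7% of VCAN, and CYBB had the most H3K4me1 and H3K4me2, at 28.0% and 24.2%.

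The calprotectin genes lie on chromosome 1 within a run of S100 genes. S100A9 (gene 6280, positions 153357854 to 153361023, plus strand) spans 3170 bp, S100A12 (gene 6283, 153373711 to 153375621, minus strand) 1911 bp, and S100A8 (gene 6279, 153390032 to 153422583, minus strand) 32552 bp. The S100A8 span reaches 31.4 kb beyond its most upstream listed start and overlaps S100A7A, so its window is far longer than the part that starts at its listed promoters. That part, 1157 bp, was 100% covered by H3K27me3. Over the whole annotated spans H3K27me3 covered 100% of S100A12, 96.9% of S100A8 and 84.2% of S100A9. A single region of 33500 bp, from 153360001 to 153393500, ran from the 3' part of S100A9 over all of S100A12 to the listed starts of S100A8. The windows of S100A8 and S100A12 held no region of any other set. The nearest H3K4me3 region lay 144163 bp from the most upstream listed S100A8 start, 159730 bp from the S100A12 start and 177497 bp from the S100A9 start.

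S100A9 differed from S100A8 and S100A12 at its start. An H3K4me1 region and an H3K4me2 region with identical bounds, 153357301 to 153358350, ran from 553 bp before the start to 496 bp after it. All 1050 bp of both also lay under an H3K27me3 region of 5500 bp (153354001 to 153359500). The promoter printed above lies wholly inside this stretch. H3K27me3 was interrupted for 500 bp between 153359500 and 153360001, inside the gene. That is a single step of the 500 bp grid on which all H3K27me3 intervals start. H3K27me3 together with H3K4me1 and H3K4me2, and without H3K4me3, was found within 1 kb of a start at 136 of 15812 protein-coding genes with a listed start, or 0.86%, and among the members at S100A9 alone. H3K27me3 as such was found there at 27.3% of genes and at 4 members, S100A8, S100A9, S100A12 and FCN1. H3K27me3 and no other set was found there at 16.4% of genes and at 3 members, S100A8, S100A12 and FCN1. The intervals come from populations of cells and separate libraries, so marks on the same and on different molecules cannot be told apart.

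When H3K27me3 regions were joined over gaps of up to 5 kb, the stretch that holds the 3 S100 members ran from 153107001 to 153503500, 396.5 kb, of which 94.6% was covered. It held 12 protein-coding genes. These were the skin barrier genes SPRR2F, SPRR2G, LELP1, PRR9 and LORICRIN, the peptidoglycan recognition genes PGLYRP3 and PGLYRP4, and S100A9, S100A12, S100A8, S100A7A and S100A7. Inside it lay 5 H3K4me2 regions, 1 H3K4me1 region (at S100A9) and 0 regions of the other 5 sets. Besides S100A9, PGLYRP4 had 1950 bp of H3K4me2 in its window and LORICRIN 1350 bp, without H3K4me1. Past the upper end of the stretch the first H3K4me1 and H3K4me2 regions followed after 11.9 kb. H3K4me3 followed after 31.9 kb and H3K9ac after 32.0 kb, both at S100A6.

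**Figure D2:**
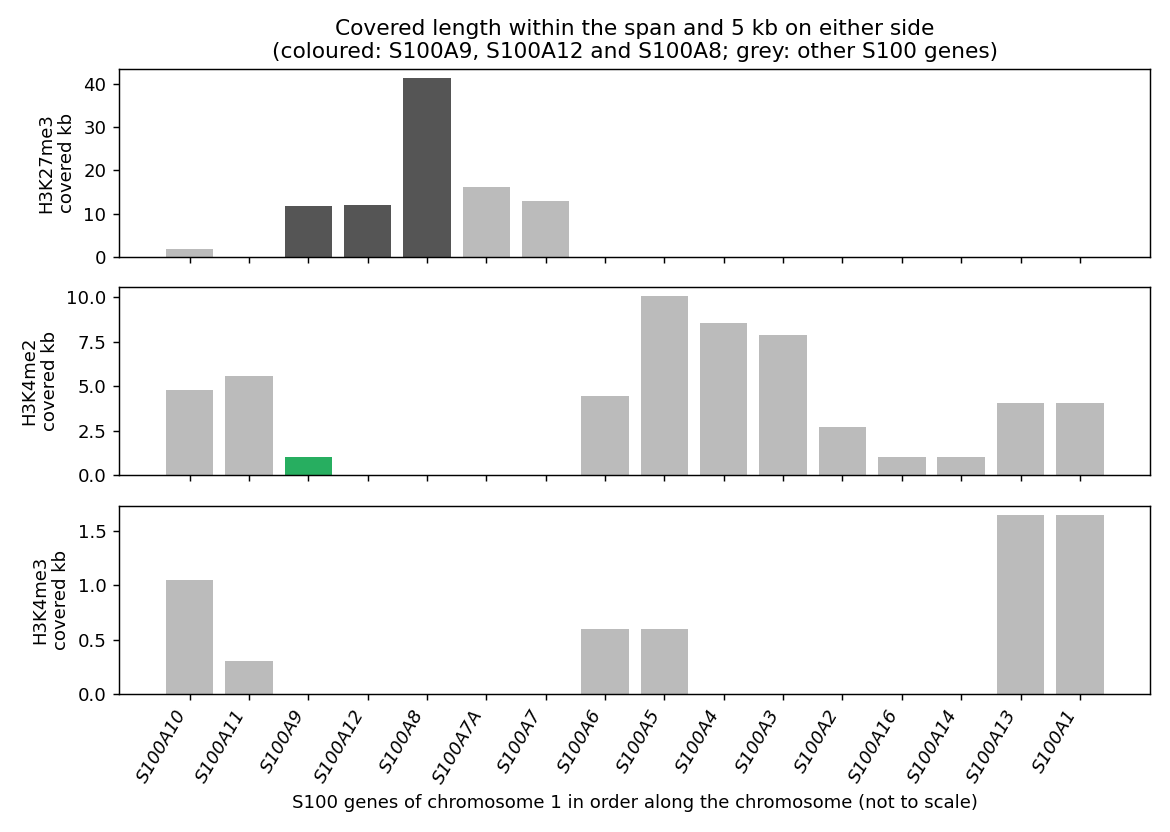
Covered length in kb of H3K27me3, H3K4me2 and H3K4me3 within the span and 5 kb on either side of the 16 S100A genes of chromosome 1, in chromosomal order (S100A9, S100A12 and S100A8 coloured, others grey). From S100A9 to S100A7 the genes had 11670 to 41552 bp of H3K27me3 and no H3K4me3, and from S100A6 to S100A1 they had H3K4me2 and no H3K27me3.

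Along the 16 S100A genes of chromosome 1, H3K27me3 covered part of the span of 5, which follow each other without a break: S100A9, S100A12, S100A8, S100A7A and S100A7. S100A10 had 1859 bp in its flank and 0% of its span. The 9 genes from S100A6 to S100A1 had H3K27me3 in 0 windows, and all 9 had H3K4me1 and H3K4me2. H3K4me2 covered 10050 bp around S100A5, 8556 bp around S100A4 and 7880 bp around S100A3, whose windows overlap. H3K4me3 was at S100A10, S100A11, S100A6, S100A5, S100A13 and S100A1, and H3K27ac at S100A11, S100A13 and S100A1. S100A4, S100A6, S100A10 and S100A11 are expressed in many cell types, while S100A7 is known from inflamed skin.

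FCN1 (gene 2219, chromosome 9, 134903232 to 134917912, minus strand) resembled S100A12. H3K27me3 covered 93.2% of its 14681 bp, the whole 2 kb around its start, and 23181 of the 24681 bp of its window, in 3 regions of 12000 to 34000 bp. No other set was called in the window, and the nearest H3K4me3 region lay 561339 bp from the start. Joined over gaps of up to 5 kb, the H3K27me3 stretch was 742.5 kb long (134720001 to 135462500), 93.9% covered, and took in FCN2, FCN1 and OLFM1 and part of COL5A1. FCN2, the ficolin gene next to it and made mainly in liver, was covered over 93.6% of its span. FCN3, the remaining ficolin gene, lies elsewhere, and had 4350 bp of H3K4me1, 4650 bp of H3K4me2 and 750 bp of H3K4me3 in its window, the last in the flank alone, with no H3K27me3.

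CD14 (gene 929, chromosome 5, 140631732 to 140633701, minus strand) had no region of any set over its 1970 bp or within 1 kb of its start. Within 1 kb of a start, no set was called at 12% of genes with a listed start. Among genes with 6 to 10 CpG in the promoter, as at CD14, the share was 29.0%. Its window counted as holding H3K4me1 and H3K4me2 because of 351 and 651 bp at its far upstream edge, at least 4276 bp before its start. The wider of the H3K4me2 regions there, 3150 bp long (140638501 to 140641650), overlapped H3K4me3 over 600 bp, H3K9ac over 1500 bp and H3K79me2 over 1800 bp, and held the listed start of TMCO6, 6.28 kb from that of CD14. TMCO6 is an unrelated membrane protein gene whose annotated span also contains CD14. The nearest H3K27me3 region was 10175 bp from the CD14 start.

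ITGAM (gene 3684, chromosome 16, 31259975 to 31332877, plus strand) was divided along its length. H3K4 methylation lay up to 8425 bp after its start, and H3K27me3 from 9526 to 63025 bp. From there to the end of the gene no H3K27me3 was called. H3K4me1 covered the start from -874 to 1525 bp, inside which H3K4me2 ran from -574 to 1075 bp. A further pair lay at 2726 to 4375 bp for H3K4me1 and 3176 to 4075 bp for H3K4me2, and H3K4me1 alone at 4676 to 5425 bp and 7976 to 8425 bp. H3K27me3 began 1100 bp after the last of these regions. It covered 63.1% of the 72903 bp span in 12 regions of 1000 to 12500 bp, separated by gaps of 500 to 1500 bp. All H3K27me3 intervals start on a 500 bp grid, so the shortest of these gaps are a single step of it. Joined over gaps of up to 5 kb, the 12 regions formed a single stretch of 53.5 kb. Of all genes, 4.78% had as many H3K27me3 regions in their window as the 13 of ITGAM, 1 of which lay in its flank. Neither H3K4me1 nor H3K4me2 shared a base with H3K27me3 in the window, in contrast to S100A9. H3K4me1 and H3K4me2 without H3K4me3 were found within 1 kb of a start at 4.21% of genes, and among the members at S100A9 and ITGAM. Among genes with 0 to 5 CpG in the promoter, as at both, the share was 7.35%. H3K4me2 without H3K4me3 was there at 14.4% of genes and at 3 members, S100A9, ITGAM and CYBB.

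Neighbouring and partner integrin genes differed in their marks. ITGAX, the next alpha chain gene 22.3 kb downstream, had 2250 bp of H3K4me2, 2400 bp of H3K4me1 and H3K27me3 over 48.5% of its span. ITGAD, the alpha chain gene after it, had H3K27me3 over 92.5% of its span and no other set. On the other side, PYCARD, the inflammasome adaptor gene, had 1500 bp of H3K4me3 and no H3K27me3. ITGB2, whose beta chain pairs with all of these alpha chains, had 14948 bp of H3K4me2, 12300 bp of H3K4me1, 2100 bp of H3K9ac and 750 bp of H3K27ac in its window without H3K4me3 or H3K27me3. ITGAL, the alpha chain of the lymphocyte integrin LFA-1, had H3K36me3/H4K16ac over 88.2% of its span and 1800 bp of H3K4me3.

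CYBB (gene 1536, chromosome X, 37780059 to 37813461, plus strand) had the most H3K4me1 of the members. Its 11 H3K4me1 regions of 450 to 2400 bp covered 12161 of 43403 bp in the window and 26.0% of the span, a share reached by 3.30% of all genes. Its 9 H3K4me2 regions of 450 to 2850 bp covered 10511 bp and 22.4% of the span. The median gene had 1 H3K4me1 and 2 H3K4me2 regions in its window, and 2.35% and 2.73% of genes had as many as CYBB. Of the 9 H3K4me2 regions, 8 overlapped H3K4me1. The exception was the region at the start itself, from -8 to 441 bp, which was the only called region within 1 kb of the start. The widest paired regions lay inside the gene, at 5092 to 7491 bp for H3K4me1 and 5392 to 8241 bp for H3K4me2. Only there, at 6892 to 7341 bp, was H3K9ac called within the span, over 450 bp. H3K4me3, H3K27ac, H3K79me2, H3K36me3/H4K16ac and H3K27me3 were called nowhere in the window, and the nearest H3K27me3 region was 71942 bp from the start. DYNLT3, the neighbour 25.4 kb away, had 600 bp of H3K4me3 and 5500 bp of H3K36me3/H4K16ac, and SYTL5 beyond it had H3K27me3 over 88.5% of its span.

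VCAN (gene 1462, chromosome 5, 83471744 to 83582302, plus strand) had H3K4me3, H3K9ac and H3K4me2 around its start and H3K36me3/H4K16ac along its body. H3K4me3 lay at -343 to 1456 bp and 2207 to 2656 bp from the start, 2250 bp in all. H3K9ac lay in 4 regions of 300 to 750 bp between -643 and 2956 bp, and a single H3K4me2 region of 6000 bp, from -1243 to 4756 bp, enclosed all of both. H3K79me2 lay at 107 to 1156 bp and 2957 to 5806 bp, over 3.53% of the span. The H3K36me3/H4K16ac set began at 6757 bp and ran to 111756 bp, just past the end of the gene, in 12 regions that covered 77.2% of the 110559 bp span. At least 50% of the span was covered at 26.2% of all genes. H3K27ac and H3K4me1 were called nowhere in the window, and H3K27me3 no nearer than 129257 bp from the start. HAPLN1, the neighbouring gene of a protein that links versican to hyaluronan, lay under H3K27me3. It lies 55.5 kb downstream and had this mark over 95.2% of its span and 1350 bp of H3K4me2. XRCC4, a DNA repair gene on the other side, had 1800 bp of H3K4me3 and 15454 bp of H3K36me3/H4K16ac.

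**Figure D3:**
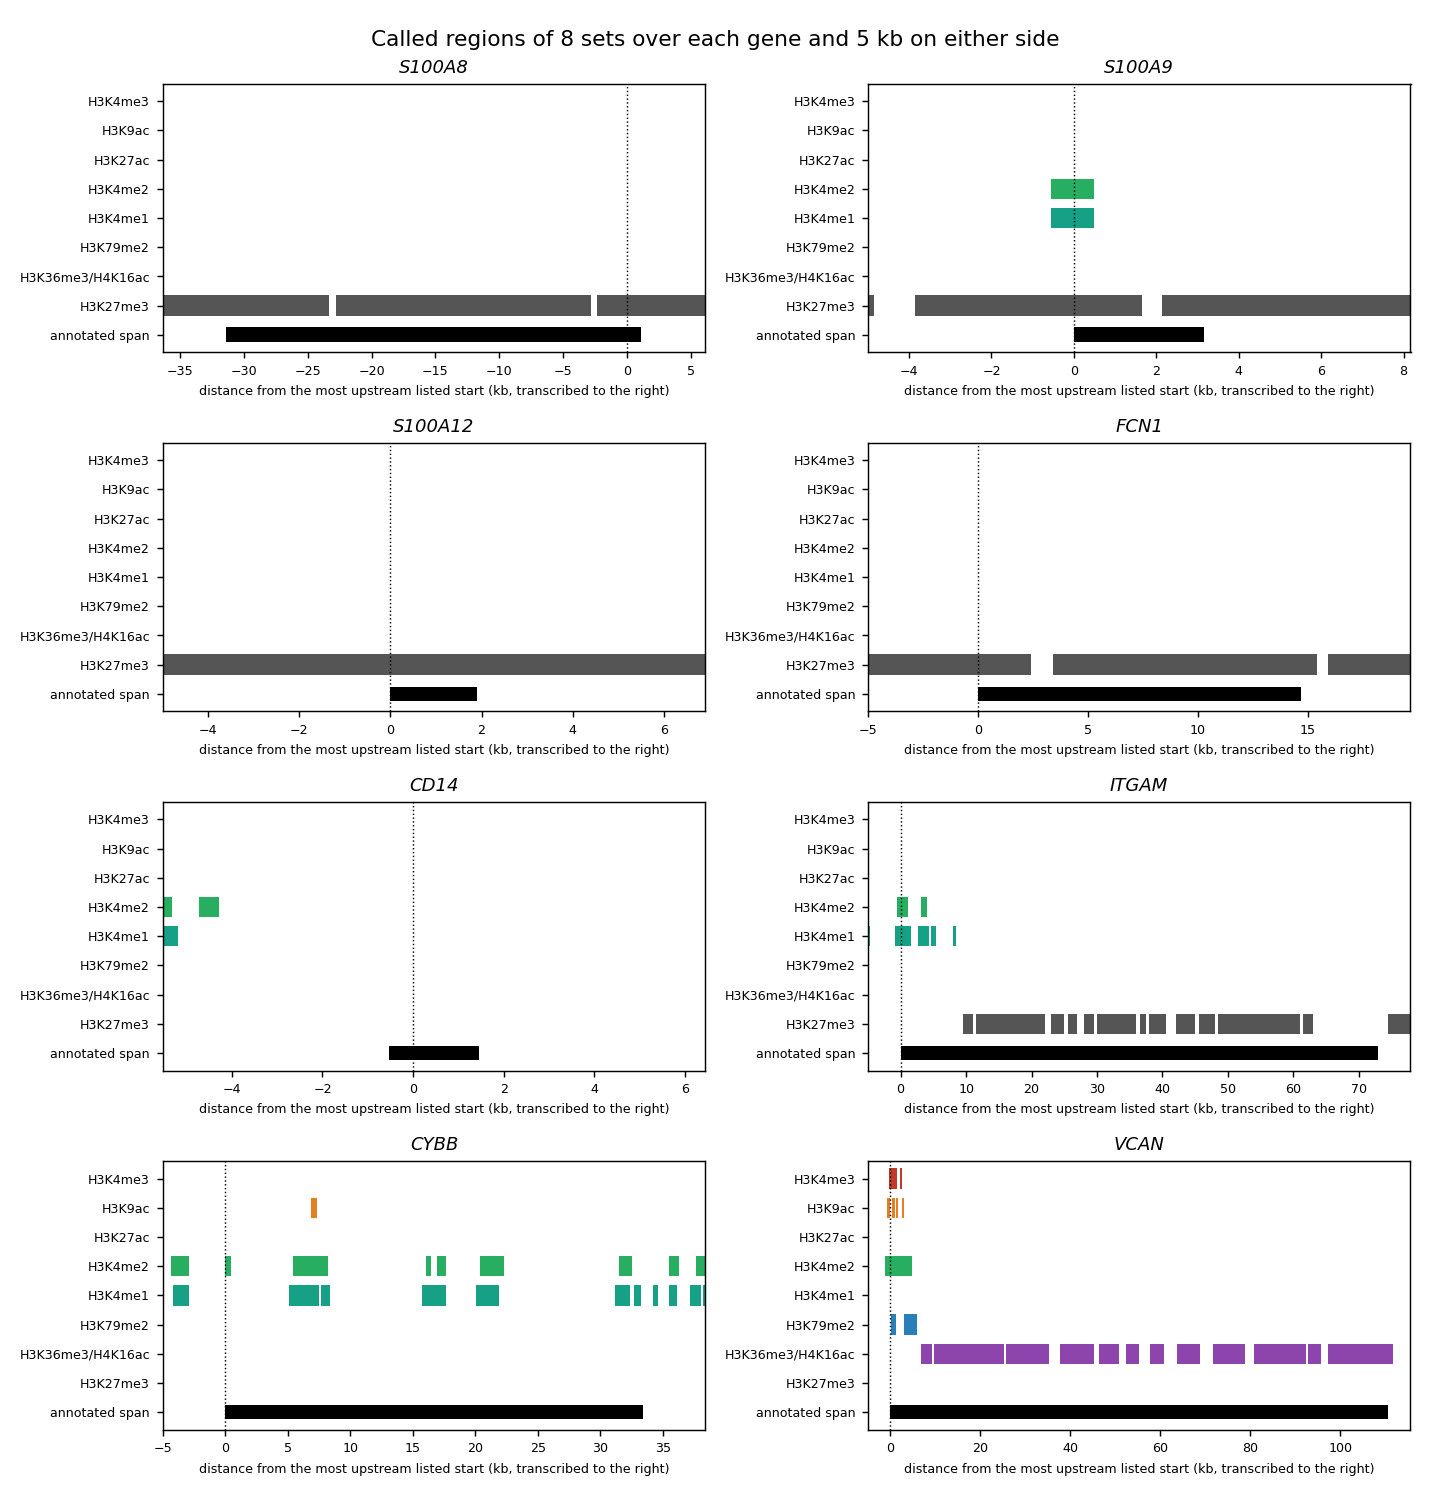
Called regions of 8 sets over each member and 5 kb on either side, against the distance in kb from its most upstream listed start (dotted line, transcribed to the right), with the annotated span in black; scales differ between panels. S100A8, S100A12 and FCN1 show H3K27me3 alone, ITGAM changes from H3K4me1 and H3K4me2 to H3K27me3 between 8425 and 9526 bp, and VCAN has promoter marks at its start and H3K36me3/H4K16ac from 6757 bp onward.

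The marks at the starts were set beside genes with promoters of like CpG content, since the members' promoters are poor in CpG. S100A8, S100A9, S100A12, FCN1, ITGAM and CYBB belong to the class with 0 to 5 CpG, of 2652 genes. H3K4me3 lay within 1 kb of a start at 0 of these 6 members, and at 2.98% of the class. H3K4me2 was there at 3 of the 6, S100A9, ITGAM and CYBB, and at 14.6% of the class. H3K27me3 was at 4 of the 6, against 49.0%. The lack of H3K4me3 at these 6 genes was therefore near the background of their class, although far from the 55.6% of all genes with a listed start. CD14 belongs to the class with 6 to 10 CpG, in which 14.6% of genes had H3K4me3, 35.6% H3K4me2 and 38.9% H3K27me3. CD14 had none of these at its start. VCAN belongs to the class with 11 to 20 CpG, in which 54.3% had H3K4me3, 70.5% H3K4me2 and 27.1% H3K27me3. VCAN had H3K4me3 and H3K4me2. The class with 21 or more held no member, and there H3K4me3 was at 76.2%, H3K4me2 at 90.0% and H3K27me3 at 19.7%.

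**Figure D4:**
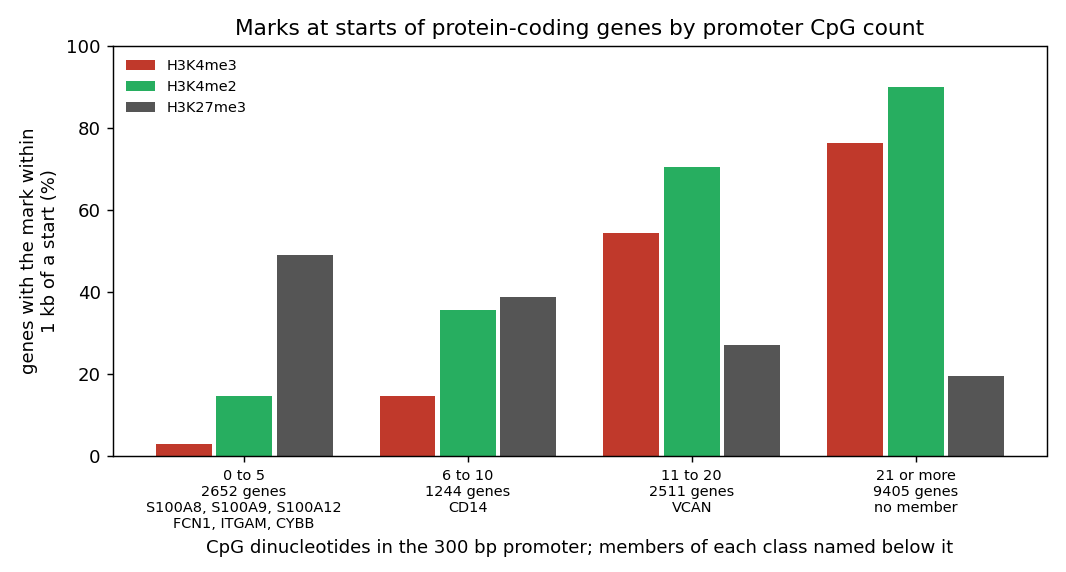
Percent of protein-coding genes with H3K4me3, H3K4me2 or H3K27me3 within 1 kb of a listed start, by the number of CpG in the 300 bp promoter (the highest of a gene's listed promoters), with the members of each class named below. H3K4me3 ran from 2.98% in the class that holds 6 of the 8 members to 76.2% in the class that holds none.

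The partners of the members were read in the same way. Among partners of CYBB in the NADPH oxidase, H3K4me3 was at 2 of 5, against 58.4% of all genes. CYBA, the other membrane subunit, had 1500 bp, and RAC2, its GTPase, 1200 bp along with 2250 bp of H3K27ac. NCF4, a cytosolic subunit, had 450 bp of H3K27ac and H3K36me3/H4K16ac over 73.6% of its span. NCF1 had no region of any set, but has near-identical pseudogenes where short reads are hard to place. In endotoxin sensing, CD14 hands lipopolysaccharide to TLR4 and LY96. H3K4me3 was at 5 of 7 genes of this list, H3K9ac at 7 of 7 and H3K27me3 at 4 of 7. The shares of all genes were 58.4%, 62.9% and 44.4%. With so few genes, none of these counts is read as differing from these shares. The H3K9ac count takes in TLR4, which had 300 bp of it. TLR4, with 4050 bp of H3K4me1 and 7800 bp of H3K4me2, and LY96 lacked H3K4me3. H3K27me3 covered 43.7% of LY96, but also 69.3% of MYD88 and 34.1% of TLR2, which had H3K4me3, and lay in the flank of TRAF6 over 2272 bp. The receptor gene TLR2 had 750 bp of H3K4me3, and among the signalling genes MYD88 had 1650 bp, IRAK4 and IRAK1 2250 bp each and TRAF6 1050 bp. Among receptors for S100 proteins, H3K4me3 was in the windows of AGER and BSG, though over 0% of the AGER span, and not in those of TLR4 and CD36.

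Within the versican family and its hyaluronan partners, H3K27me3 was in 5 of 6 windows, against 44.4% of all genes. At HAPLN3 this mark lay in the flank alone. H3K27me3 covered 94.6% of ACAN and 82.6% of NCAN, the proteoglycan genes of cartilage and nerve tissue, and 53.9% of BCAN. CD44, the hyaluronan receptor gene, was the 1 without H3K27me3, and had 1800 bp of H3K4me3 and H3K36me3/H4K16ac over 85.7% of its span. H3K4me3 was at 2 of the 6, against 58.4% of all genes, the other being HAPLN3 with 1200 bp. The BCAN window also had 6778 bp of H3K4me2, 4978 bp of H3K4me1, 450 bp of H3K27ac and 300 bp of H3K9ac. In the ficolin and lectin pathway, 2 of 4 windows held H3K27me3, near the 44.4% of all genes. The protease gene MASP1 lay under H3K27me3 over 98.7% of its span.

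Of 20 other genes of mature monocytes, H3K4me3 was at 5 (25%), against 58.4% of all genes. H3K4me1 and H3K4me2 were at 15 each (75%), against 56.4% and 78.2%, and H3K27me3 at 8 (40%), against 44.4%. The counts for H3K4me2 and H3K27me3 were near those shares and are not read as a result. CSF1R, the receptor for the monocyte growth factor, had 14550 bp of H3K4me1, 12450 bp of H3K4me2 and 900 bp of H3K27ac without H3K4me3. The largest H3K4me1 cover in this list was 15000 bp at CD86, a co-stimulatory ligand gene, which also had 1200 bp of H3K4me3. FPR1, a receptor for bacterial peptides, had H3K27me3 over 100% of its span, and CD163 and MNDA over 71.2% and 71.6%, with no other set. FCGR1A, which has near-identical copies, had no region of any set. Of 12 inflammatory cytokine and enzyme genes, 2 had H3K4me3, against 58.4% of all genes. TNF had 1200 bp of it in its flank and 0% of its span, and PYCARD had 1500 bp. H3K27me3 was at 6 of the 12 (50%), near the 44.4% of all genes, and covered 100% of IL6 and CCL4. IL1B, the gene of the cytokine interleukin-1 beta, had the most H3K4me1 of this list, 9079 bp, with 8479 bp of H3K4me2 and no H3K27me3. Of 10 neutrophil granule genes, H3K4me3 was at 1, ELANE, with 300 bp in its flank, H3K4me1 at 7 and H3K27me3 at 4. The shares of all genes were 58.4%, 56.4% and 44.4%, the last near the 4 of 10.

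Regulators of the monocyte lineage were split. H3K4me3 and H3K9ac were each at 8 of 11 (72.7%), against 58.4% and 62.9% of all genes. With so few genes, these counts are not read as differing from those shares. IRF8 and KLF4, which drive monocyte maturation, had neither, and H3K27me3 covered 91.5% of IRF8 and 97.0% of KLF4. SPI1, CEBPD, STAT3 and RUNX1 had H3K27ac, from 1200 to 4350 bp. CEBPA and CEBPB, which act in granulocyte and monocyte progenitors, had 2400 and 1500 bp of H3K4me3 and no H3K27ac.

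**Figure D5:**
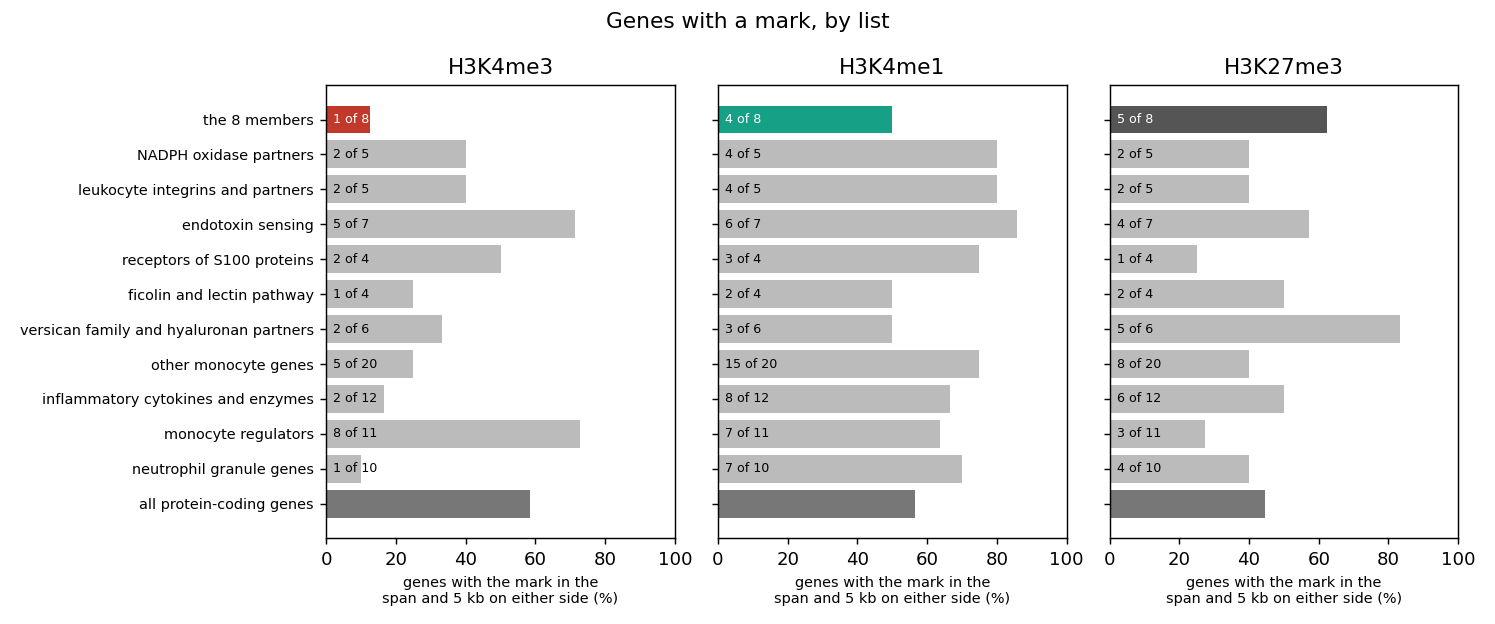
Percent of genes with H3K4me3, H3K4me1 or H3K27me3 in the span and 5 kb on either side, for the 8 members (coloured), the related lists (light grey, with counts) and all protein-coding genes (dark grey). H3K4me3 was at 1 of 8 members and 8 of 11 monocyte regulators, against 58.4% of all genes. The count of regulators is not read as differing from that share. H3K4me1 was at 4 of 8 members and 15 of 20 other monocyte genes, against 56.4%.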

How the data were processed

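The deposited file is a list of called intervals, which per the labels come from chromatin immunoprecipitation libraries of KBM-7 cells. The authors deposited start and end positions with the name of a mark, and no other value. Tools listed in the submitters' processing notes are cutadapt, Bowtie2 and MACS, with the build GRCh38. Their versions, roles and thresholds are unstated in these sources. No read count is given, so depth is unknown. Intervals under 1 further mark name, H3K9me3, match no sample and were not used.

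Starts on the 50 bp grid were moved by 1 base so that all positions count from 1. Within each mark, intervals that overlapped or touched were merged to regions. A gene had a mark where at least 1 bp of its window was covered. Genes, starts and promoters came from RefSeq tables of GRCh38.p14. A start was listed for 15812 genes, and where a gene has several, a mark at any of them counted. Covered lengths were computed with Python 3.11.15, and the cover functions were tested on simulated intervals. With 1 library per mark no p-value was computed.

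The members, the related lists and the comparisons were chosen with earlier results of these data known. The named genes are the 8 members, their nearest 3 neighbours on either side, the S100A genes of chromosome 1 and, in each list, the few genes with or without a mark or up to 4 with the most cover; the 6 genes used to check the line stand apart. Also named, after their values were seen, were genes of the same lists set against a member and those with most of their span covered. Some genes of the related lists are not reported here by name. Alternatives were other windows, minimum covers, wider regions, background genes of like span, unjoined intervals and wider joins.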

Additional observations from a re-analysis of the deposited data

How the results depend on the processing

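No paired analysis was possible because each mark has 1 library and no test was made. The members with H3K27ac, H3K4me2, H3K4me1 and H3K27me3 stayed within 1.5 times their number under all alternatives. Within 10 kb of the span, 2 members had H3K4me3, 2 had H3K79me2 and 2 had H3K36me3/H4K16ac, in place of 1 each, the addition being CD14. H3K9ac was at 0 members among regions of at least median width and at 1 with at least 500 bp covered, in place of 2. Intervals as deposited numbered 251 over the members, against 78 joined regions. With gaps of up to 5 kb joined, the widest H3K27me3 stretch over a member was 742500 bp, against 33500 bp. Ending S100A8 at its most upstream listed start, added after the data were seen, changed 0 of 8 counts of members. Among genes with spans in the range of the members, 60.6% had H3K4me3 and 40.9% H3K27me3. Unknown depth limits every statement that a mark was not called.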
